A study of Mus musculus with 6 samples.

Results

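The genes followed here mark alternatively activated macrophages: Arg1, Chil3, Retnla, Mgl2, Pdcd1lg2, Tgm2, Fn1, Socs2, Matk and Egr2. They were taken as a list of gene names, and all 10 of 10 were found among the 25206 probe sets of the arrays, 1 probe set each. The samples were mouse bone marrow-derived macrophages, cells grown from marrow, on 6 single-colour arrays. The 3 control replicates came from macrophages labelled as having received no treatment. The 3 JG-98 replicates had been exposed for 16 hours to JG-98, a small molecule that blocks chaperones of the Hsp70 family. Its dose is labelled as 0.3 micromole, with no volume. The labels name no vehicle, no mouse strain, sex or age, and no cytokine added to either group. Whether replicates are separate animals or cultures is not labelled, so p-values cover only the spread between the arrays, which may be technical. The comparison asks whether an Hsp70 inhibitor alters the expression of the alternative activation program in macrophages.

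Alternative activation is the state that macrophages enter when interleukin-4 or interleukin-13 binds receptors that contain the subunit IL-4Rα. Janus kinases on the receptor then phosphorylate the transcription factor STAT6, which moves to the nucleus and switches on genes for arginine use, lectins, secreted chitinase-like proteins and wound repair. STAT6 and its relatives bind palindromes of TTC and GAA, STAT6 preferring a spacer of 4 bases. In mice, Arg1, Chil3 and Retnla are the classical readouts of this state, which is prominent in helminth infection, allergy and tumours.

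The upstream sequence of 3 members is shown because it holds such a palindrome. RefSeq promoter windows (build GRCm38.p6) matched 6 of the 10 members, in 11 windows, and the 250 bases before each gene start were searched on both strands. Arg1, Tgm2, Socs2 and Fn1 had no entry in that table. The STAT6-type palindrome (TTC, any 4 bases, GAA) stood before Retnla and Pdcd1lg2, and in 5.85% of all 32851 windows. The form with 3 bases between TTC and GAA stood before Chil3 and in 7.02% of windows. A match of the type bound by C/EBP and ATF factors, TGATG, any base, AA, any base, stood before 0 of the 6 members and in 3.44% of windows. Each sequence below is read 5′ to 3′ on the strand of its gene and ends at the base before the gene start, with the palindrome in capitals. The first is chr16:48842359-48842608 on the plus strand, the next chr19:29410669-29410918 on the plus strand, and the last chr3:106167565-106167814 on the minus strand. The capitals begin 145 bases before the start of Retnla, 82 before that of Pdcd1lg2 and 172 before that of Chil3.
Retnla: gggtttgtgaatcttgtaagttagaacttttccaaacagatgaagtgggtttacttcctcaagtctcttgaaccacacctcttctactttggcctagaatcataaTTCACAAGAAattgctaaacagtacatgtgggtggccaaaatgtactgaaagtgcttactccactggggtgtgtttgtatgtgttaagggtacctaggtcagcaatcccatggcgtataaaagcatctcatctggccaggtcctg
Pdcd1lg2: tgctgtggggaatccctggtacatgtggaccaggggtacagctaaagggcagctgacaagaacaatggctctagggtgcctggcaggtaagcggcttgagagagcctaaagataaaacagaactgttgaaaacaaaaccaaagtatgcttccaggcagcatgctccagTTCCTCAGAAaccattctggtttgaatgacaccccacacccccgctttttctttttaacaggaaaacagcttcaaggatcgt
Chil3: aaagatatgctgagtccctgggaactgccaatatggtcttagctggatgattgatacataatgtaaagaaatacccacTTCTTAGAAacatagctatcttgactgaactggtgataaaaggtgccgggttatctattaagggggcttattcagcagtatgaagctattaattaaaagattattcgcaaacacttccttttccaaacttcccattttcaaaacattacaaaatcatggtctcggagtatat
A match is a description of these letters, not a site shown to be bound.

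The level of each probe set was first set against a dim range, because low array values cannot be told from background. The dim range was drawn from 47 measured genes of liver, pancreas, muscle, brain, eye, skin, testis, kidney, lung, gut, pituitary and mammary gland, and its limit was the 95th percentile of their mean levels, 4.73 on the log2 scale. Of all probe sets, 57.4% lay at or below that limit. Probes differ in how strongly they bind, so the limit is a guide and not a test of detection.

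Of the 10 markers, only Tgm2 and Egr2 lay well above the dim range, meaning at least 1 log2 unit over its limit. The other 8 lay within it, among them the classical readouts Arg1, Chil3 and Retnla. None of the 10 was called higher or lower with JG-98, which does not show that they were unchanged. At a limma adjusted p under 0.05 the count was 0 of 10 (smallest adjusted p = 0.69), and at an unadjusted p under 0.05 it was also 0. Over all probe sets the shares were 0.0397% and 8.32%. In all 10 markers the control and JG-98 values overlapped, while the groups did not overlap in 15.6% of all probe sets and in 28.9% of those well above the dim range. The median marker differed by 0.031 (JG-98 minus control, log2), beside 0.00080 over all probe sets, with 6 markers higher and 4 lower.

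**Figure D1:**
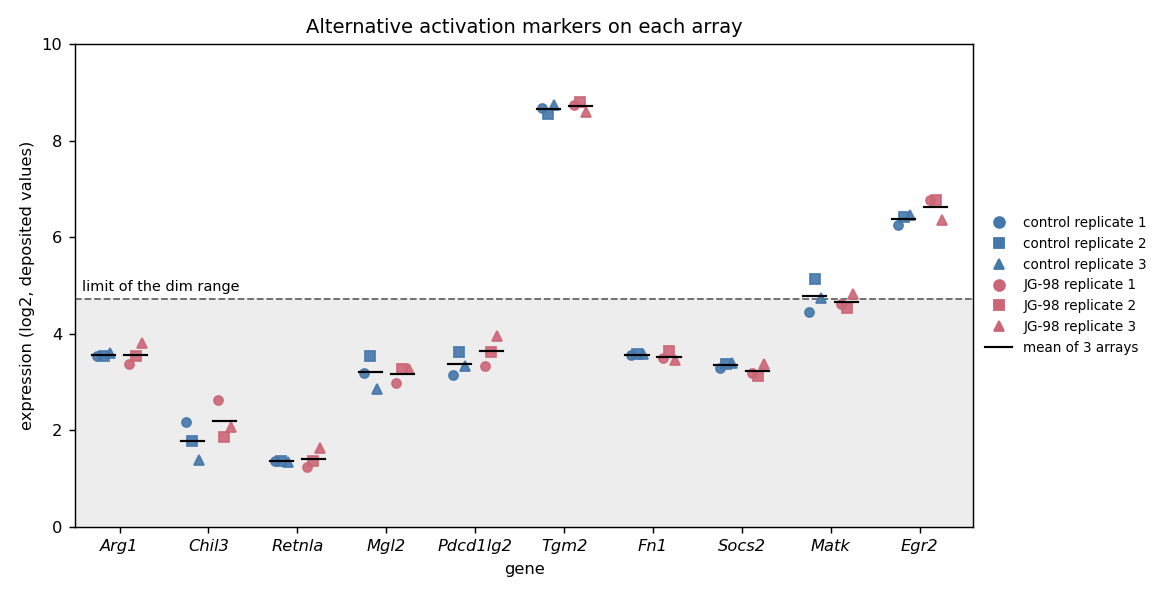
Expression of the 10 markers on each array, as deposited log2 values (vertical axis) by gene (horizontal axis), with 1 symbol per array, a bar at the mean of each group of 3, and the dim range shaded up to its limit of 4.73. Tgm2 and Egr2 stand clear of the shaded range, Matk lies at its limit, and control and JG-98 values overlap in every gene.

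Identity of the cells was checked first. All 10 measured macrophage markers lay well above the dim range, with Csf1r, the receptor for the macrophage growth factor, at 11.24 in control and 11.15 in JG-98 samples. The markers of other cells that can also express members lay within the dim range. This held for 8 of 8 dendritic cell markers (dendritic cells express Mgl2 and Pdcd1lg2), 8 of 8 stromal markers (fibroblasts make Fn1) and 8 of 8 T and NK cell markers (NK cells express Matk). It also held for 8 of 8 neutrophil and 5 of 5 B cell markers, 7 of 8 markers of eosinophils, basophils and mast cells, and 4 of 5 of megakaryocytes and platelets. The exceptions were Ccr3 and Pf4, the latter of which macrophages also express. The summed linear level of the macrophage markers was 16960 to 17100 in control and 16110 to 16940 in JG-98 samples, which do not overlap. The eosinophil, basophil and mast cell list did not overlap either (98.05 to 107.4 against 87.87 to 93.84). Nor did the megakaryocyte and platelet list (517.4 to 557.2 against 488.4 to 517.2), while the remaining lists did overlap. A summed linear level is set mostly by the brightest genes, in the platelet list by Pf4. By mean log2 level the macrophage list still did not overlap (10.32 to 10.35 in control against 10.22 to 10.28 in JG-98 samples). The eosinophil, basophil and mast cell list then overlapped (3.059 to 3.171 against 3.029 to 3.064), as did the platelet list (4.639 to 4.761 against 4.636 to 4.768). Of the 10 macrophage markers, 8 were lower and 2 higher in JG-98 samples by mean. The cause of these shifts and their part in the results below were not tested.

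One array stood apart. Over all probe sets, the correlation of JG-98 replicate 3 with each other array was 0.992 to 0.9935, against 0.9948 to 0.9964 among the other 5. Its dim probe sets lay above the mean of the other 5 arrays in 70.3% of cases, by a median of 0.12, and those well above the dim range lay 0.049 below it. Of the 8 dim markers, 7 lay above the mean of the other arrays on that array, by a median of 0.12. The difference of each marker is therefore given with and without it where it changed direction or moved by more than 1.5 times. Medians of lists and differences of other genes are given with all arrays only. Some of these differences also moved by more than 1.5 times without JG-98 replicate 3.

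Among the enzymes and secreted proteins, Arg1 encodes arginase-1, which turns arginine into ornithine and urea and so feeds proline and polyamine synthesis. Its log2 values were 3.53, 3.54 and 3.60 in control replicates 1 to 3 and 3.36, 3.53 and 3.80 in JG-98 replicates 1 to 3. The 3 control values lay close together, and the JG-98 values spread to both sides of them. The difference was 0.0078 ± 0.12 (SE, n = 3 per group; limma adjusted p = 0.99), with a 95% interval from -0.27 to 0.29. Without JG-98 replicate 3, which held the highest value, it turned to -0.11 (limma adjusted p = 0.63). It was also below 0 without control replicate 1 or 2 and after both rescalings of the arrays. The mean level of 3.56 was exceeded by that of 21 of the 47 tissue-restricted genes.

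Chil3, also called Ym1, is a secreted chitinase-like protein that forms crystals in inflamed lung. Control values were 2.17, 1.77 and 1.39, and JG-98 values 2.62, 1.86 and 2.06. JG-98 replicate 1 held the highest value and control replicate 3 the lowest, and the other 4 were mixed. The difference of 0.41 ± 0.26 had the widest interval among the markers, from -0.20 to 1.02 (limma adjusted p = 0.74). Leaving out JG-98 replicate 1 gave 0.19, and leaving out control replicate 3 gave 0.21. The neighbouring paralog Chil4, on a probe set of its own, was at 1.55 ± 0.18 in control and 1.47 ± 0.32 in JG-98 samples (SD, n = 3). Whether its transcript also binds the Chil3 probes was not tested.

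Retnla, the secreted cysteine-rich protein RELMα, or FIZZ1, had control values of 1.37, 1.36 and 1.35 and JG-98 values of 1.24, 1.36 and 1.64. These lay below all 47 tissue-restricted genes in mean level, at 1.38. JG-98 replicates 1 and 3 were the lowest and the highest of the 6. The difference was 0.054 ± 0.11 (limma adjusted p = 0.93) and turned to -0.058 without JG-98 replicate 3. Its paralog Retnlg was also in the dim range, at 1.72 and 1.73.

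At the cell surface, Mgl2 (CD301b) is a lectin that binds galactose-type sugars. Control values were 3.20, 3.55 and 2.85, and JG-98 values 2.97, 3.28 and 3.27. All JG-98 values lay between the lowest and the highest control. The difference was -0.024 ± 0.18 (limma adjusted p = 0.99) and turned to 0.15 without control replicate 2 and to 0.077 without JG-98 replicate 1. With JG-98 replicate 3 left out it was -0.074. Clec10a, its close paralog Mgl1, was at 4.01 in control and 4.09 in JG-98 samples, also in the dim range.

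Pdcd1lg2 encodes PD-L2, the second ligand of the inhibitory T cell receptor PD-1. Control values were 3.14, 3.62 and 3.34, and JG-98 values 3.34, 3.62 and 3.95. JG-98 replicate 3 was the highest, and the other values were interleaved. The difference was 0.27 ± 0.18 (95% interval -0.17 to 0.71, limma adjusted p = 0.76), and 0.11 without JG-98 replicate 3. The other ligand, Cd274 (PD-L1), is mainly induced by interferon. It lay well above the dim range at 6.86 in control and 7.39 in JG-98 samples, with no overlap, and differed by 0.53 ± 0.10 (limma adjusted p = 0.29). With an intensity trend Cd274 passed, and over the 14 other settings its limma adjusted p ran from 0.033 to 0.72. None of the 7 measured ligands and receptors of this family passed over all probe sets.

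Tgm2 encodes transglutaminase 2, an enzyme that cross-links proteins and is among the alternative activation markers that mouse and human macrophages share. It was the brightest marker relative to the dim range, 3.95 log2 units above its limit. Control values were 8.66, 8.55 and 8.74, and JG-98 values 8.73, 8.79 and 8.60. The 6 values lay within 0.24 of each other, with the groups interleaved. The difference was 0.055 ± 0.084 (limma adjusted p = 0.91), a ratio of 1.04 with a 95% interval from 0.903 to 1.19. It stayed between 0.00525 and 0.11 whichever array was left out, the lowest without control replicate 2, with 0.013 when JG-98 replicate 2 was left out and the highest, 0.11, when JG-98 replicate 3 was.

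Fn1, which encodes the matrix protein fibronectin, a substrate of transglutaminases, was in the dim range. Control values were 3.55, 3.58 and 3.57, and JG-98 values 3.50, 3.63 and 3.45. JG-98 replicate 2 was above the narrow control range and the other 2 below it. The difference was -0.042 ± 0.072 (limma adjusted p = 0.92). Leaving out JG-98 replicate 3 gave -0.0036, and leaving out JG-98 replicate 2 gave -0.094. Of 10 fibronectin partners and other transglutaminases, 8 were well above the dim range and 0 passed. The widest differences among these were -0.67 ± 0.15 for the matrix protein Thbs1 and -0.52 ± 0.098 for F13a1, the transglutaminase factor XIII-A (limma adjusted p = 0.35 and 0.27). Sdc4, a membrane proteoglycan that binds fibronectin, differed by -0.22 ± 0.064 (limma adjusted p = 0.45) and passed with an intensity trend (limma adjusted p = 0.040).

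A pair of members act in signalling. Socs2, an inhibitor of cytokine and growth hormone receptors, had control values of 3.29, 3.37 and 3.39 and JG-98 values of 3.18, 3.12 and 3.37. JG-98 replicates 1 and 2 lay below all controls, and JG-98 replicate 3 among them. The difference was -0.12 ± 0.087 (limma adjusted p = 0.77), and -0.20 without JG-98 replicate 3, with an unadjusted p under 0.05 and a limma adjusted p of 0.40. It was -0.072 without JG-98 replicate 2. The related Cish and Socs1, both induced by STAT factors, were also dim, with differences of 0.14 ± 0.21 and 0.072 ± 0.095. Of the 7 other genes of this family that were measured, 3 lay in the dim range and 2 well above it.

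Matk encodes a kinase related to CSK that restrains SRC-family kinases. Its values were 4.45, 5.14 and 4.75 in control and 4.62, 4.53 and 4.83 in JG-98 samples. All JG-98 values lay inside the range of the controls. At a mean of 4.72 it was the member nearest the limit of the dim range and just inside it, while Egr2, at 6.50, was the nearest outside. The difference was -0.12 ± 0.18 (limma adjusted p = 0.91) and turned to 0.064 without control replicate 2. With JG-98 replicate 3 left out it was -0.20. The related Csk, well above the dim range, differed by -0.083 ± 0.065.

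Egr2 is a zinc-finger transcription factor that interleukin-4 induces in macrophages. Its values were 6.25, 6.42 and 6.45 in control samples. In JG-98 samples they were 6.76 and 6.77 in replicates 1 and 2, above every control, and 6.35 in replicate 3, among the controls. The difference of 0.25 ± 0.13, a ratio of 1.19 (95% interval 0.956 to 1.48), did not pass (limma adjusted p = 0.69), although its unadjusted p of 0.10 was the smallest of the 10. Without JG-98 replicate 3 it was 0.39, with an unadjusted p under 0.05 and a limma adjusted p of 0.30. Egr1, the family member induced by many stimuli, differed by -0.11 ± 0.094. The corepressor genes Nab1 and Nab2, whose products bind EGR proteins, were higher in all JG-98 than in all control samples, by 0.17 ± 0.074 and 0.12 ± 0.065, without passing (limma adjusted p = 0.62 and 0.69).

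**Figure D2:**
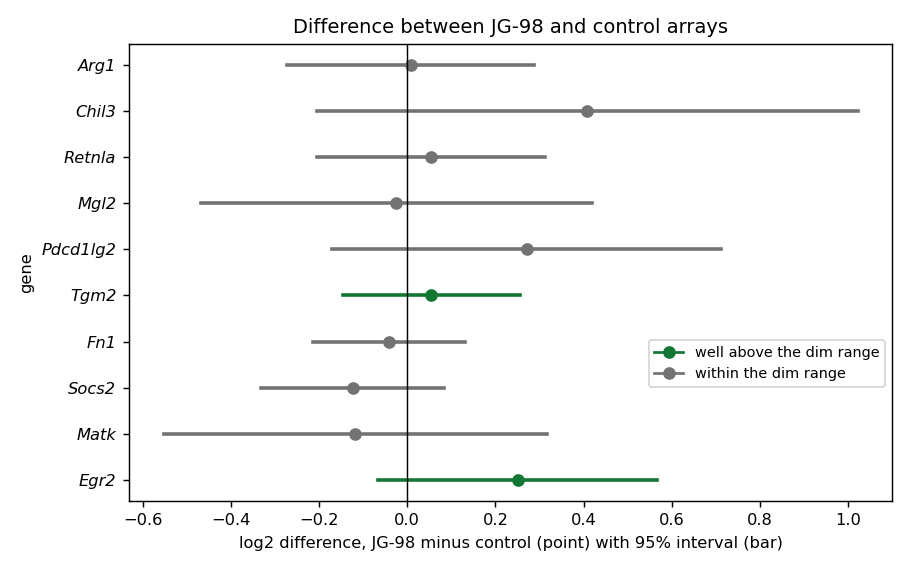
Log2 difference of JG-98 minus control (horizontal axis) for each marker (vertical axis), with the estimate as a point and its 95% interval from limma as a bar, coloured by whether the gene lies within the dim range. Every interval includes 0, and that of Chil3, from -0.20 to 1.02, is the widest.

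Upstream of these markers, all 10 measured genes for the receptor and its signalling lay well above the dim range, with Il4ra at 8.49 ± 0.020 in control and 8.36 ± 0.12 in JG-98 samples (SD, n = 3) and Stat6 at 9.59 and 9.59. None passed. The median difference of this list was -0.097, with 8 of 10 lower, beside 4632 lower of all 8651 probe sets well above the dim range. The macrophage markers also had 8 of 10 lower, with a median of -0.069. Il4ra differed by -0.13 ± 0.080 and Stat6 by 0.0075 ± 0.061. The smallest adjusted p of the signalling list belonged to Stat5a, at -0.21 ± 0.070 (limma adjusted p = 0.50). It was followed by Il13ra1, the subunit that binds interleukin-13, at 0.23 ± 0.097, and by the kinase genes Tyk2 and Jak3 at -0.15 ± 0.087 and -0.12 ± 0.071.

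**Figure D3:**
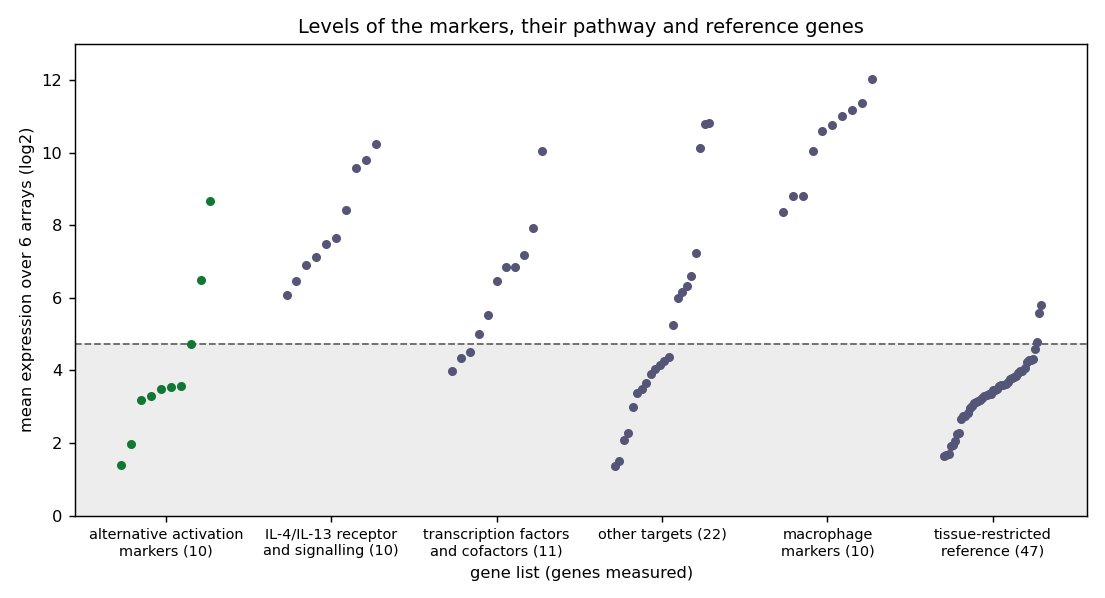
Mean log2 level over the 6 arrays (vertical axis) of each gene, 1 point per gene, sorted within its list (horizontal axis), with the dim range shaded. Of the markers 2 of 10 are well above the limit, against 10 of 10 signalling genes and 10 of 10 macrophage markers; the 47 reference genes set the limit.

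Of the 11 transcription factors and cofactors of the program, 6 lay well above the dim range, 3 within it, and 0 passed. Klf4, which acts with STAT6, was at 5.30 in control and 5.78 in JG-98 samples, and Myc, a regulator of human alternative activation, at 7.70 and 8.16. In both the groups did not overlap, with differences of 0.48 ± 0.085 and 0.47 ± 0.085 (limma adjusted p = 0.24 and 0.26). With the dim probe sets left out, both passed (limma adjusted p = 0.036 and 0.038), and Myc also did with an intensity trend (limma adjusted p = 0.017). Irf4, a factor needed for the program, lay in the dim range, at 4.55 and 4.14, with all JG-98 values below all controls and a difference of -0.40 ± 0.075 (limma adjusted p = 0.27). Batf3, also dim, differed by 0.23 ± 0.075. The median of the list was 0.11, with 8 of 11 higher. Of all 25206 probe sets 12670 were higher, and of the 8651 well above the dim range 4019 were.

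Of 22 other targets of the program, 13 lay in the dim range with most of the markers, including the chemokines Ccl17, Ccl22 and Ccl24, and 8 well above it. None passed. F13a1 was at 6.43 in control and 5.91 in JG-98 samples, without overlap, and passed with the dim probe sets left out and with an intensity trend (limma adjusted p = 0.045 and 0.039). Mrc1, the mannose receptor CD206, was at 10.89 and 10.67, also without overlap, and differed by -0.22 ± 0.074 (limma adjusted p = 0.51). Il1rn, which encodes the antagonist of the interleukin-1 receptor, differed by 0.20 ± 0.064, and the lectin gene Cd209e by -0.14 ± 0.064 in the dim range. Over the 43 genes of these 3 lists together, 5 were higher and 5 lower at an unadjusted p under 0.05, against 3.84% and 4.48% of all probe sets. All JG-98 values lay above all controls in 7 and below them in 8, against 7.12% and 8.44% of all probe sets. Of the 43 genes, 24 lay well above the dim range, against 34.3% of all probe sets. Among the 8651 probe sets well above it, all JG-98 values lay above all controls in 1075 and below them in 1421. At an unadjusted p under 0.05, 499 of these 8651 were higher and 658 lower. The median difference of the 43 genes was 0.019.

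**Figure D4:**
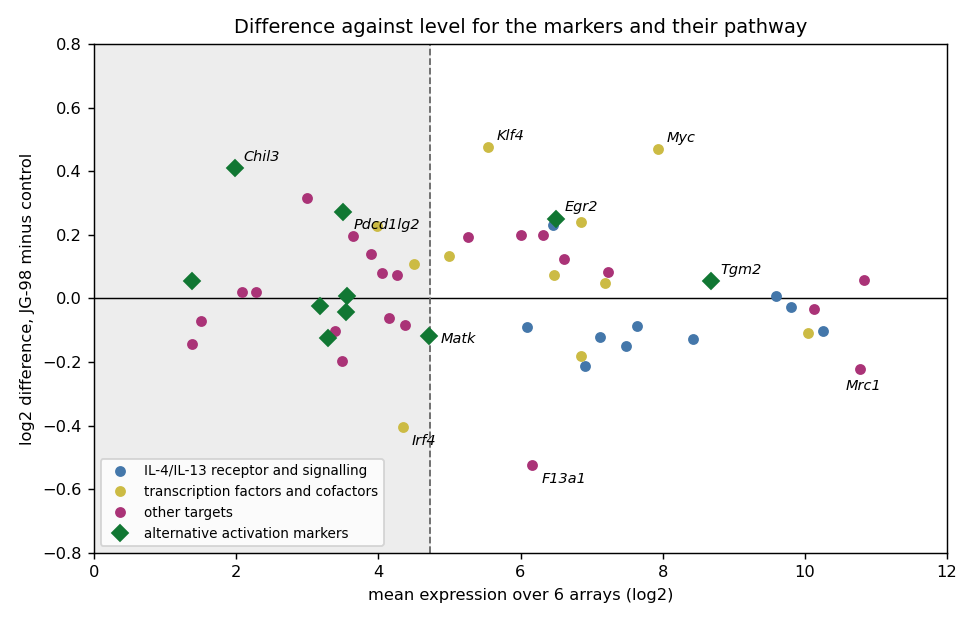
Log2 difference of JG-98 minus control (vertical axis) against the mean log2 level over 6 arrays (horizontal axis) for the 10 markers (diamonds) and the 43 genes of their pathway (circles, coloured by list), with the dim range shaded. Tgm2 sits near 0 at a high level, Egr2 at 0.25, and Klf4 and Myc lie highest and F13a1 lowest.

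Arginine and polyamine metabolism, which Arg1 feeds, was measured through 11 other genes, 9 of them well above the dim range, and 0 passed. The arginine importer Slc7a1 was at 6.75 in control and 7.27 in JG-98 samples and spermidine synthase, Srm, at 8.04 and 8.55, in both without overlap. Their differences were 0.52 ± 0.083 and 0.51 ± 0.096 (limma adjusted p = 0.21 and 0.27). Slc7a1 passed under 3 and Srm under 2 of 14 other settings. Arg2, the mitochondrial arginase, was dim, at 3.88 and 3.70. The list had a median of 0.11.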

How the data were processed

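The authors deposited 1 log2 expression value per probe set and array. Per the submitters' processing notes, RMA, affy and R 2.15.1 were used, in roles the notes used here do not give. RMA as generally defined summarises several probes into 1 value, compresses differences between dim probe sets and removes shifts shared by all genes. For the arrays, a genome build was not given in the sources used here. The platform annotation gave 1 symbol for 23185 of 25206 probe sets and none for 2021, and symbols were updated by Entrez number through a RefSeq table. Array medians were 4.08 to 4.24.

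Groups follow the labels, with 3 arrays each. Differences (JG-98 minus control) were fitted by lmFit and eBayes (limma 3.58.1, R 4.3.3) without covariates, with two-sided tests, Benjamini-Hochberg adjustment over all 25206 probe sets and a threshold of 0.05. Intervals are limma's, at 95%. The fit was tested on simulated data. The number of arrays limits the precision. The members and all gene lists were chosen with earlier results of these data known, so lists are described by counts and medians and were not tested as sets. All members are named; from other lists, genes come from the 4 with the smallest adjusted p, from listed paralogs, or, as with Csf1r, Il4ra, Stat6, Ccr3, Pf4, Ccl17, Ccl22 and Ccl24, were chosen after their values were seen.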

Additional observations from a re-analysis of the deposited data

How the results depend on the processing

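No marker passed in limma under any of the 14 other settings that could be fitted to it, which were rescaling of the arrays, filters on dim probe sets, other variance priors, array weights, the replicate block and leaving out each array (smallest adjusted p = 0.24, for Egr2 with array weights). The directions of Chil3, Tgm2, Pdcd1lg2, Socs2, Fn1 and Egr2 held under all of these. Arg1 turned to -0.012 after median centring, to -0.0094 after a further quantile normalization and to -0.11 with array weights, and ranged from -0.11 to 0.11 when 1 array was left out. Retnla turned to -0.050 with array weights and ranged from -0.058 to 0.14, Mgl2 from -0.20 to 0.15 and Matk from -0.28 to 0.064 when 1 array was left out. Array weights gave JG-98 replicate 3 the lowest weight, 0.334, and moved Chil3 to 0.64 and Pdcd1lg2 to 0.089. At an unadjusted p under 0.05 there were 3 markers with array weights (Chil3, Socs2 and Egr2), 1 with the replicate block (Chil3), 2 without JG-98 replicate 3 (Socs2 and Egr2) and 0 under each of the others. Of all 25206 probe sets, 3406 did so with array weights, 1855 with the replicate block and 2847 without JG-98 replicate 3. The count of markers well above the dim range was 2 with either other reference, but Matk then lay above the limit, which leaves 7 dim markers.

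Over all probe sets limma called 10, but 254 with an intensity trend and 25 with array weights. It called 90 of the 12603 probe sets left by the filter at the median level and 182 of the 10728 left at the dim limit. It called 0 to 5 when 1 array was left out, the 5 without JG-98 replicate 3. In the 43 pathway genes it called 0, but 2 with an intensity trend, and 0 without any one array (0 to 0). Under the filter at the dim limit it called 3 of the 27 pathway genes left. With the replicate block it called 0 probe sets (smallest adjusted p = 0.22) and 0 markers. The numbers were not treated as pairs. Same-numbered arrays correlated at 0.095, -0.13 and 0.10 in their deviations from the group means, and arrays of different number at -0.23 to 0.20. With 3 arrays per group these correlations cannot decide whether the arrays were paired. The cause of the changes between settings was not tested. For the 8 dim markers, signal over background limits what could be seen.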

Other observations

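Markers of classical activation, the state induced by interferon and bacterial products, were also mostly at low level. Of 13 measured, 10 lay in the dim range and 2 well above it, and limma called 0 over all probe sets, with 3 higher and 0 lower at an unadjusted p under 0.05, against 3.84% and 4.48% of all probe sets. These 3 were Acod1, which makes itaconate, at 0.71 ± 0.088 in the dim range (limma adjusted p = 0.13), Cd86, a costimulatory ligand, at 0.42 ± 0.12 and Tnf at 0.26 ± 0.065. With an intensity trend Acod1 and Tnf passed (limma adjusted p = 0.036 and 0.044). The list had a median difference of 0.11, against 0.031 for the alternative activation markers. That difference was not tested.

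Exactly equal values on 2 or more arrays occurred in 3 of the 10 alternative activation markers, Arg1, Retnla and Pdcd1lg2, and in 4.46% of all probe sets.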
